A study of Arabidopsis thaliana with 30 samples.

Results

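The chloroplast of Arabidopsis thaliana keeps a small genome of its own, and the transcripts read from it were followed here across 30 RNA libraries of roots and shoots. The deposited table lists 133 features under chloroplast codes among 33199 features in all. A feature was taken as a member when its FPKM (fragments per kilobase of gene and sequencing depth, on the authors' scale) was above 0 in at least 3 libraries, which 106 did. Of the others, 15 were at 0 in every library and 12 were above 0 in 1 or 2 libraries, with at most 5 reads in all. The 6 members just inside this limit, above 0 in exactly 3 libraries, had 3 or 4 reads each in all.

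The seedlings were 7 days old and either ahp4, the mutant allele ahp4-2 of a histidine phosphotransfer protein of the cytokinin pathway, or the wild type Col-0, here Col. They were cut at the hypocotyl into pools of roots and of shoots. BA, the synthetic cytokinin 6-benzylaminopurine, was given for 2 h at 100 nM in a liquid medium with 0.1% DMSO, and mock plants had the 0.1% DMSO only. There were 3 BA and 3 mock libraries of ahp4 shoots and 4 libraries in each of the other 6 groups: BA and mock Col shoots, BA and mock ahp4 roots, and BA and mock Col roots. All groups, mock included, had been moved from agar to liquid, and the labels do not say whether the samples of a group were grown separately. The p-values therefore measure the spread between samples, which may be technical. The library titled as replicate 1 of mock ahp4 roots carries Col-0 and BA in its other labels, and it was grouped by its title. It had 21.4 FPKM of ARR5, a gene switched on by cytokinin, inside the 13.7 to 36.5 FPKM of mock ahp4 roots and below the 166.2 to 203.0 FPKM of BA ahp4 roots, and 0.350 FPKM of AHP4.

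Chloroplast genes encode core subunits of both photosystems, of the cytochrome b6f complex, ATP synthase and an NADH dehydrogenase-like (NDH) complex, the large subunit of the carbon-fixing enzyme Rubisco, a bacterial-type RNA polymerase, and part of the chloroplast ribosome. Many are read as long transcripts that carry several genes and are cut afterwards. The organelle is transcribed by that polymerase and by polymerases encoded in the nucleus. Its mature RNAs, unlike nuclear messengers, have no lasting poly(A) tail, and a short tail added in chloroplasts marks RNA for decay. The libraries were made from RNA purified on poly-T beads, so each value below is the level that remained after that step and not the amount of chloroplast RNA in the organ.

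The table gives codes only. A gene name was given where the feature's length, recovered from its values, matched 1 chloroplast gene of RefSeq (TAIR10.1), which named 56 members, or matched in length and lay between such genes in map order, which named 23. The remaining 27 members stayed unnamed, 21 of them with the length of a transfer RNA, and are called by their codes. Libraries held 9205137 to 13779007 reads. In the label checks, AHP4 had 0.808 to 2.49 FPKM in mock ahp4 shoots and 2.66 to 10.6 FPKM in mock Col shoots, without overlap, and in mock roots 0.347 to 0.435 FPKM in ahp4 and 0.539 to 1.71 FPKM in Col. ARR5 had 140.0 to 173.9 FPKM in BA Col roots and 12.04 to 31.7 FPKM in mock Col roots, and 20.2 to 33.1 FPKM in BA Col shoots and 2.33 to 5.77 FPKM in mock Col shoots. All 6 shoot markers were called higher, and all 6 root markers lower, in shoots than in roots in each of the 4 organ comparisons.

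Chloroplast genes gave 251.9 to 435.8 RPM (reads per 1000000 reads of the library) in the 14 shoot libraries (median 303.8) and 11.2 to 30.3 RPM in the 16 root libraries (median 19.6). Every shoot library lay above every root library, and the share pooled over libraries was 15.8 times as high in shoots as in roots. In 49 members all 14 shoot libraries lay above all 16 root libraries, which held for 16.1% of all features above 0 in at least 3 libraries. The mean was higher in shoots in 105 members, against 45.7% of those features, and ATCG00310, with 3 libraries above 0, had the lower mean in shoots. In chloroplast reads, the levels rest on 2319 to 4569 per shoot library and 125 to 339 per root library. The summed level of mitochondria-encoded genes was lower in shoots, with 50.4 to 134.2 RPM in shoots and 306.2 to 554.0 in roots, and ATMG01390 and ATMG00020 held 48.7% and 34.9% of these reads in shoots and 50.9% and 40.9% in roots. Of 24 mitochondrial genes tested singly, 4 to 7 were called lower and 0 to 1 higher in shoots in the 4 organ comparisons. Of all 20818 genes in these fits, 32.1% to 33.1% were called higher. In either direction, 15008 to 15320 of the 20818 had an unadjusted p under 0.05 (limma). The share of all genes called lower is not given here, so the count is not read as a trait of mitochondrial genes. Whether fewer chloroplast-bearing cells or less chloroplast RNA per cell lies behind the root level cannot be told apart in bulk samples. Nor can either be told apart from a difference between organs in what the poly-T step kept.

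**Figure D1:**
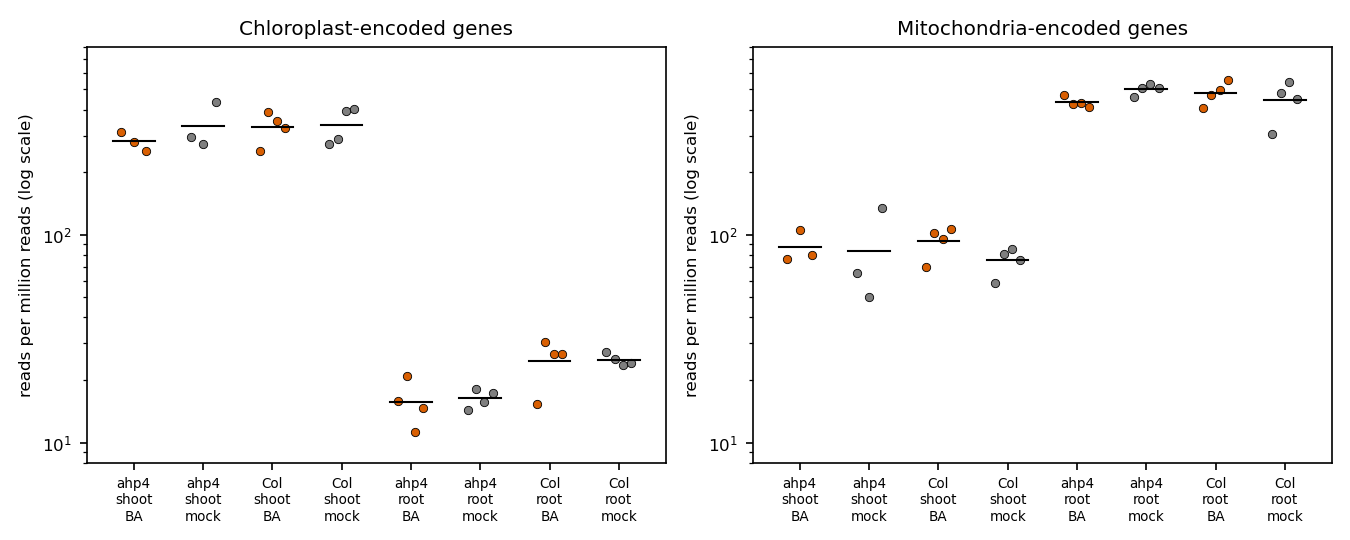
Level of chloroplast-encoded (left) and mitochondria-encoded (right) genes in each library, in RPM, on log axes, for the 8 groups. Points are libraries and bars are group means. Chloroplast levels lie between 251.9 and 435.8 RPM in shoots and between 11.2 and 30.3 in roots.

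Within shoots the summed level overlapped between all groups. BA ahp4 shoots had 311.4, 280.1 and 251.9 RPM and mock ahp4 shoots 296.3, 272.0 and 435.8. BA Col shoots had 252.4, 391.5, 353.3 and 325.5, and mock Col shoots 272.9, 289.7, 391.8 and 401.1. In mock roots the genotypes did not overlap: ahp4 had 14.3, 18.2, 15.7 and 17.3 RPM, and Col had 27.2, 25.3, 23.7 and 24.1. In BA roots they overlapped, with 15.9, 20.9, 11.2 and 14.6 in ahp4 and 15.4, 30.3, 26.6 and 26.8 in Col. No p is given for this sum, because it is a score over the members. The ahp4 library with conflicting labels was the lowest of its group, so leaving it out could not close the gap and is no check of it. Summed FPKM of the 6 shoot markers overlapped in the same mock roots, with 82.3 to 304.2 in ahp4 and 64.2 to 360.6 in Col. In each of the 4 root groups the library with the highest marker sum was also the highest in chloroplast RPM, with 249.5 FPKM beside 20.9 RPM in BA ahp4, 304.2 beside 18.2 in mock ahp4, 344.3 beside 30.3 in BA Col and 360.6 beside 27.2 in mock Col. The library with the lowest marker sum was also the lowest in chloroplast RPM, with 127.4 FPKM beside 11.2 RPM in BA ahp4, 82.3 beside 14.3 in mock ahp4, 94.0 beside 15.4 in BA Col and 64.2 beside 23.7 in mock Col. The part of shoot tissue in the root values was not tested.

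In a shoot library 83 to 96 of the 106 members had a read (median 91.5), and in a root library 35 to 64 (median 48). The median member had 7.25 reads per shoot library and 0 per root library. A further limit is length: 54 members are shorter than the 370 to 420 base fragments selected for sequencing, so their FPKM is less sure than that of longer genes. The highest FPKM in shoots belonged to rpl32 (ATCG01020, 159 bases), a protein of the large ribosomal subunit, at 108.1 ± 26.2 FPKM (SD, n = 14). It ranged over 71.0 to 161.3 FPKM and lay above psbM in every shoot library. psbM (105 bases), a small photosystem II subunit, had 42.2 ± 8.32 FPKM, and psaJ (135 bases), a small photosystem I subunit, had 39.5 ± 7.64. rbcL, the large subunit of Rubisco, had 31.7 ± 14.7 FPKM and psbA, the D1 protein at the photosystem II reaction centre, had 29.0 ± 11.7. The ranges of these 4 overlapped. Next came psbI at 27.1 and psbK at 23.3 FPKM, both small photosystem II subunits, atpE at 25.0 and atpH at 20.4 FPKM, of the ATP synthase, and the unnamed ATCG00450 (75 bases) at 22.6 FPKM, all overlapping. The 10 highest held 49.6% of the members' summed FPKM in shoots, and rpl32 alone 14.5%.

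Counted in reads instead of reads per length, the order in shoots was rbcL with 5677 reads over the 14 libraries, rpoB with 3962, psbA with 3851, atpB with 3695 and rpl32 with 2158. Among all 33199 features, rpl32 ranked 1016 by mean shoot FPKM, rbcL 3633 and psbA 4015. The nuclear RBCS1A, which encodes the small subunit of the same enzyme as rbcL, had 18760 ± 2346 FPKM in shoots (SD, n = 14). The levels of these partners thus stood far apart in the poly-T-selected libraries.

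In roots rpl32 was again first, at 2.75 ± 1.52 FPKM (SD, n = 16), from 88 reads in all. psbA followed at 1.40 ± 0.844 with 303 reads, psaJ at 1.03 ± 0.847 with 29 reads, psbM at 0.934 ± 0.873 with 21 reads and rpl16, a protein of the large ribosomal subunit, at 0.913 ± 0.434 with 76 reads. atpH, ATCG00390, ATCG00100, psbI and rpl36 completed the 10 highest, at 0.824 to 0.713 FPKM, and all of these overlapped. The lists of the 10 highest in shoots and in roots shared 6 members. rbcL, ranked 4 in shoots, was ranked 22 in roots at 0.411 ± 0.227 FPKM, and atpE, ranked 7 in shoots, was ranked 27. By reads rpoB led in roots, with 440.

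Since the RNA was selected on poly-T, the longest run of A in the coding exons of the 73 named protein-coding members was read from the RefSeq chloroplast sequence (TAIR10.1, called Pltd there), on the gene's own strand. It was 2 to 14 bases long with a median of 6, and 12 of the 73 (16.4%) held a run of 8 or more. The windows below, shown for high members and for 3 with long runs, have up to 12 bases on either side, 5′ to 3′, with the run in capitals.
rpl32: atggcagttccAAAAAAAcgtacttctatc
psbM: tataatttacgtAAAAAccgttagtcaaa
rbcL: gggttatccgcgAAAAActatggtagagc
psbA: taactagcactgAAAAccgtctttacat
rpoB: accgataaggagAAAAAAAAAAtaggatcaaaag
rpoA: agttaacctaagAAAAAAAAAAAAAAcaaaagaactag
accD: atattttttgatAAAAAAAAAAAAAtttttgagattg

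All 7 windows are coding sequence. They lie at Pltd:113449-113478 (rpl32, plus strand), Pltd:28715-28743 (psbM, minus), Pltd:55492-55520 (rbcL, plus), Pltd:1356-1383 (psbA, minus), Pltd:25672-25705 (rpoB, minus), Pltd:78083-78120 (rpoA, minus) and Pltd:57360-57396 (accD, plus). accD, with a run of 13, averaged 0.232 FPKM in shoots, while psbA, with a longest run of 4, averaged 29.0. rpoB, also shown for its long run, had a median of 9.57 FPKM in shoots. Runs outside coding exons, which longer transcripts can carry, were not read. Across the 73 genes Spearman's rho between the longest run and mean shoot FPKM was -0.41, and -0.31 over the 49 genes of 300 bases or more. Both are descriptions across genes of the same libraries, and longer genes have more places for a run.

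By the test, 75 of all 106 members were called higher in BA ahp4 shoots than in BA ahp4 roots, 88 in mock ahp4, 81 in BA Col and 91 in mock Col, and none lower. Here every feature above 0 in a library was tested by limma on log2(FPKM + 1), and called at an adjusted p under 0.05. The same test called 26.2%, 25.9%, 26.6% and 26.5% of all 26893 features higher in these 4 comparisons. Those include features above 0 in only 1 or 2 libraries, while members had to be above 0 in at least 3. The shares are therefore not like for like. In all, 69 members were called in each of the 4 and 7 in none, and the matching shares of all features were not counted. With a minimum of 1 FPKM in 3 libraries, 94 members were tested and 73, 84, 75 and 85 were called higher, against 32.5%, 32.1%, 33.1% and 32.9% of all genes. The second set of counts is no support, because most members passed that minimum only through shoots. The first set shares this limit in part, since 10 members had no root read. Over all 106 members the median log2 change was 1.72, 1.86, 1.67 and 1.82, beside -0.01, -0.02, -0.01 and -0.02 over all features.

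These values depend on scaling. On the deposited scale the median gene tested differed by -0.07 to -0.06 between organs. Scaled by total reads it was -0.53 to -0.38, the members' medians were 1.63 to 1.81, and 71 to 84 of 94 members were called.

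rbcL had 17.6, 27.0 and 57.6 FPKM in shoots (lowest, median, highest) and 0.100 to 0.996 FPKM in roots. Its log2 change in mock Col was 4.53 ± 0.32 (SE, limma with every feature above 0 in a library tested, adjusted p = 2.1e-12). It was the only member, or role, whose share of the members' reads did not overlap between organs, at 11.4% ± 3.06 in shoots (SD, n = 14) and 3.33% ± 1.40 in roots (SD, n = 16). The log2(FPKM + 1) scale understates changes of low genes. On it the largest changes in mock Col, in the same fit, were rpl32 at 4.70 ± 0.35, psbM at 4.56 ± 0.32 and rbcL. Next came psbI, ATCG00450, atpE, psaJ, psbK, atpH and atpB at 4.32 to 3.91. The ratio of mean FPKM in all shoots to all roots was taken only for the 79 members with over 3 root reads. Among these the highest were rpl2 (ATCG01310) at 78.5, rbcL at 77.3 and atpE at 70.9, and rpl32 had 39.3. The rpl2 ratio rests on 12 root reads and that of atpE on 29. rpl2 also has an identical copy, ATCG00830, with 18 shoot and 3 root reads. Its ratio and its place in this order therefore depend on how reads were divided between the copies. In BA Col and mock ahp4 psbA stood among the 10 in place of atpH, and in BA ahp4 the 10 were those of mock Col.

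**Figure D2:**
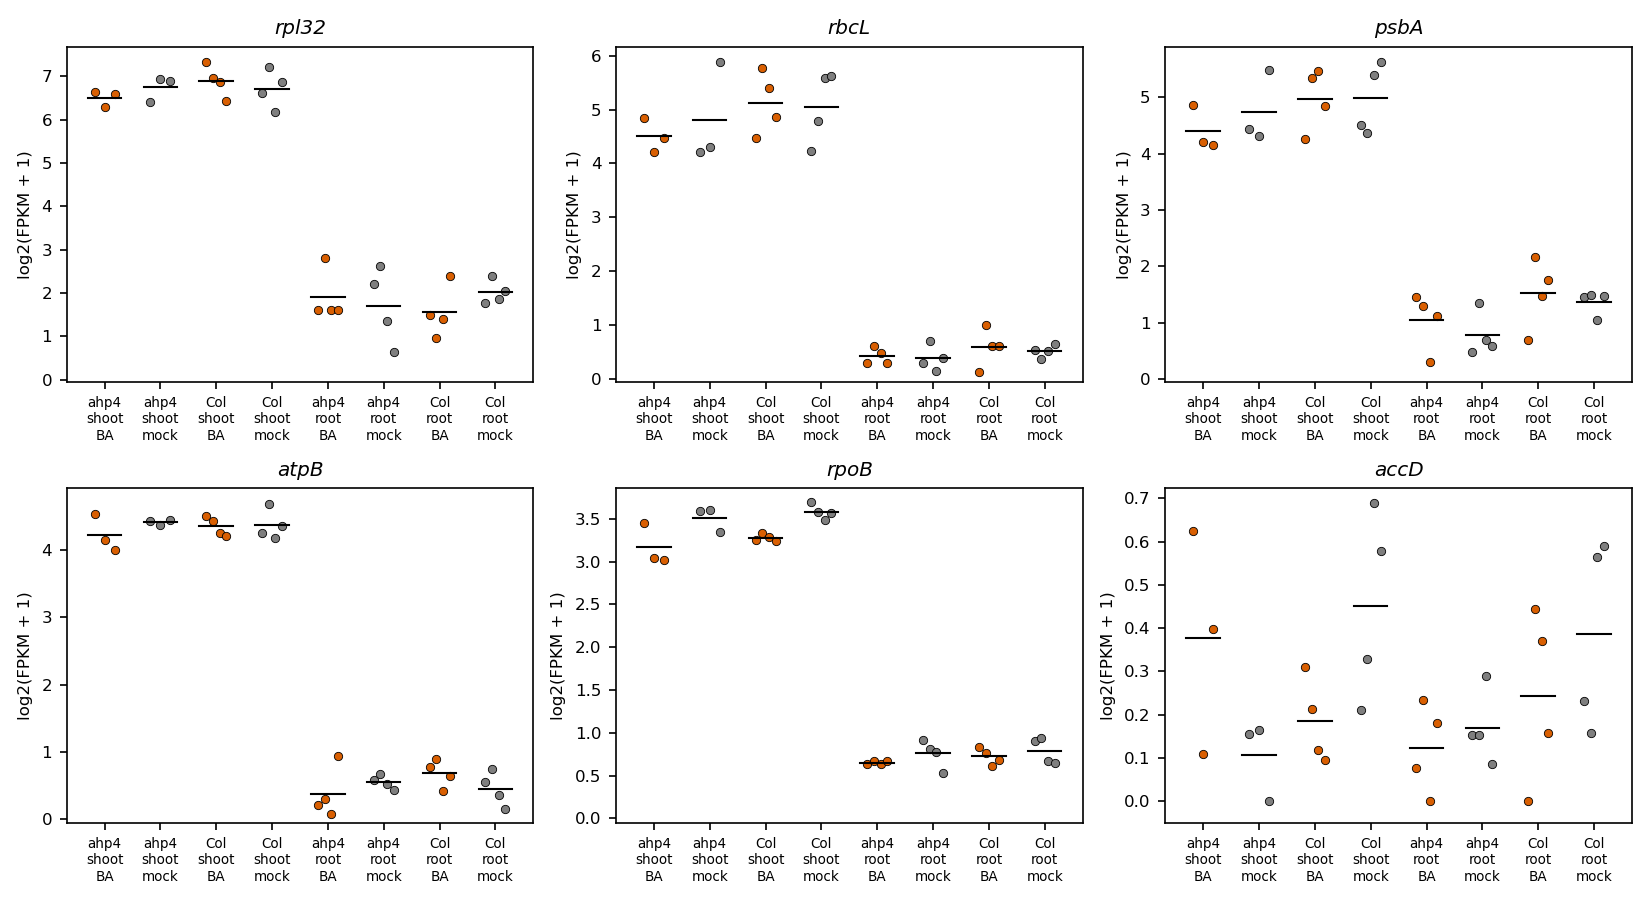
log2(FPKM + 1) of 6 chloroplast genes in each library, for the 8 groups, with bars at group means and a separate vertical scale per gene. rpl32, rbcL, psbA, atpB and rpoB lie apart between shoots and roots, whereas accD overlaps.

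Of 41 members of the photosynthetic complexes, 33 were called higher in shoots in BA ahp4, 41 in mock ahp4, 39 in BA Col and 39 in mock Col. In mock Col this held for 14 of 15 photosystem II members, 5 of 5 of photosystem I, 6 of 6 of cytochrome b6f, 6 of 6 of ATP synthase and 8 of 9 of the NDH complex. As a ratio of mean FPKM, given only where a member had over 3 root reads, ATP synthase had a median of 25.9 over its 6 members. atpE, its epsilon subunit, stood at 70.9 times the root level and the neighbouring atpB, its beta subunit, at 42.8 times. The genes atpB and atpE overlap by 4 bases. Photosystem II had a median ratio of 21.7 over 12 members, with psbK at 65.4, psbM at 45.2 and psbA at 20.8. These 3 ratios rest on 13, 21 and 303 root reads. Its psbC, an antenna protein of the core, stood at 16.0 and psbD, the D2 protein, at 28.2, and these genes share 53 bases.

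Photosystem I had a median ratio of 15.0 over 5 members. psaA and psaB, which form its reaction centre, were close to each other at 15.0 and 13.6, while the small subunit psaJ had 38.3 and psaI 4.12. psaI was called in both mock comparisons and in neither BA comparison, from 37 shoot reads and 14 root reads. The cytochrome b6f complex, which passes electrons between the photosystems, had a median of 17.3, with petN at 36.4, petL at 27.5, petD at 17.3 and petB at 10.9. The ratios of petN and petL rest on 6 root reads each. The NDH complex, which returns electrons from photosystem I to the carrier pool, had low levels in both organs. Its highest member ndhK reached 2.098 ± 0.835 FPKM in shoots, ndhJ 1.94 ± 1.05 and ndhC 1.70 ± 0.506, and in BA ahp4 4 of 9 NDH members were called, against 9, 8 and 8 in mock ahp4, BA Col and mock Col. The difference between these counts was not tested.

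**Figure D3:**
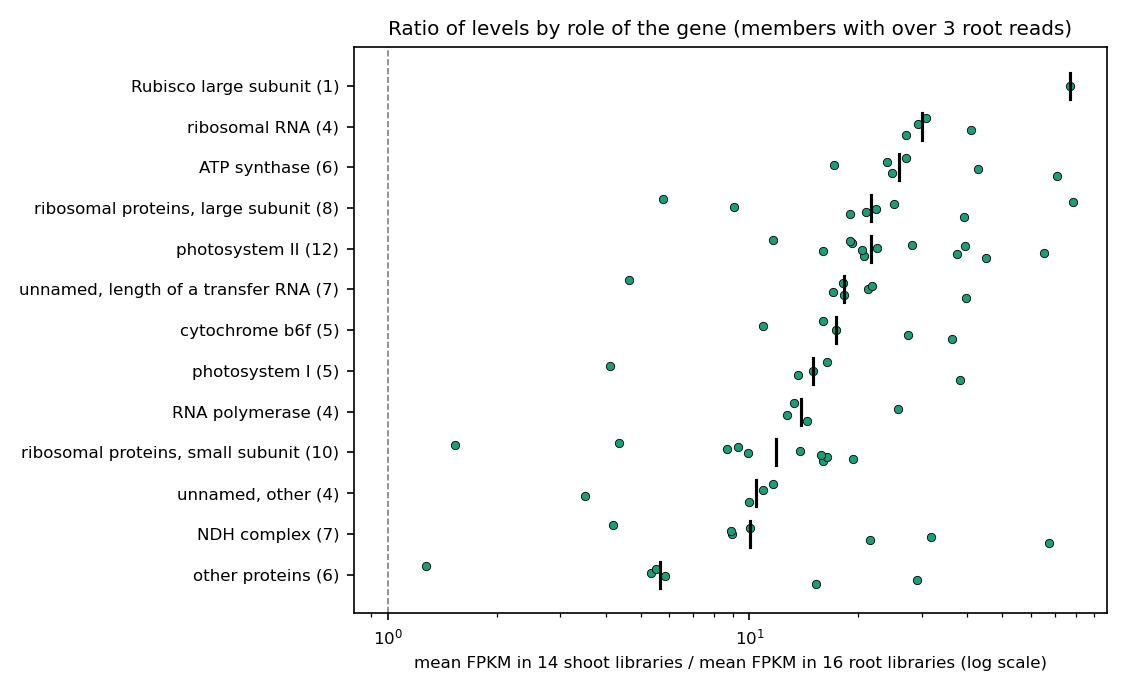
Ratio of mean FPKM in shoots to mean FPKM in roots for the 79 members with over 3 root reads, by role, on a log axis. Points are members, bars are medians, numbers in brackets are members shown, and the dashed line marks equal levels. The ratios run from 1.27 for accD to 78.5 for rpl2 (ATCG01310), which has an identical copy, so its ratio depends on how reads were divided.

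Among genes of chloroplast gene expression, the 4 RNA polymerase genes were called higher in shoots in all 4 comparisons. rpoB, the beta subunit, had 7.11, 9.57 and 12.01 FPKM in shoots (lowest, median, highest) and 0.445 to 0.915 in roots, a ratio of 14.4. The genes downstream of it in the same transcript, rpoC1 and rpoC2, had ratios of 12.7 and 13.3, and rpoA, which lies elsewhere, 25.8. Together the 4 took 12.6% ± 2.93 of the members' reads in shoots (SD, n = 14) and 20.4% ± 6.85 in roots (SD, n = 16), and the ranges, 8.85% to 17.7% and 10.7% to 32.4%, overlapped. In BA ahp4, mock ahp4, BA Col and mock Col, 9, 9, 7 and 9 of 9 large-subunit protein genes were called, and 9, 8, 7 and 8 of 12 small-subunit ones. Beside rpl32, the leading proteins were rpl16 at 17.3, rpl14 at 11.1 and rpl33 at 9.32 FPKM in shoots, and in the small subunit rps14 had a ratio of 15.95 and rps3 of 19.4.

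Of the ribosomal RNAs, the bulk of RNA in plastids, 23S rRNA had 1555 shoot and 93 root reads under ATCG00950 and 1332 and 75 under ATCG01180, and 16S rRNA had 783 and 32 under ATCG00920 and 660 and 34 under ATCG01210. These genes, with rpl2 and rps7, lie in the inverted repeat, where each has an identical copy, so how reads were divided between copies is uncertain. It was closer to even for these ribosomal RNAs than for rpl2, which had 564 shoot reads under ATCG01310 and 18 under ATCG00830. The 21 members of transfer RNA length held 1.90% ± 0.333 of the members' reads in shoots and 1.99% ± 1.00 in roots. ATCG00450, ATCG00100, ATCG00400 and ATCG00090 were the highest of them. Reads of precursors that run through such short genes cannot be told apart from reads of the transfer RNAs themselves.

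Among other proteins, clpP, the catalytic subunit of a protease, had 10.8 ± 1.58 FPKM in shoots and 0.704 ± 0.474 in roots, and cemA, an envelope membrane protein, had 29.2 times its root level. ycf4, an assembly factor of photosystem I, had a ratio of 5.84, and ycf1, also called TIC214, a component of the protein import machinery of the envelope, 5.33. accD, a subunit of the acetyl-CoA carboxylase that starts fatty acid synthesis in plastids, had 43 reads over 14 shoot libraries and 55 over 16 root libraries. It averaged 0.232 ± 0.192 FPKM in shoots and 0.182 ± 0.154 in roots, and its log2 changes of 0.25 ± 0.13, -0.06 ± 0.13, -0.06 ± 0.12 and 0.07 ± 0.12 (SE) in BA ahp4, mock ahp4, BA Col and mock Col were not called. The 7 members called in no organ comparison were accD, rps16, rps7 (ATCG01240), ATCG00310, ATCG00930, ATCG00940 and ATCG01000, of which all but accD had 22 reads or fewer in all. rps15, with 10 shoot and 11 root reads, was called in BA ahp4 alone. The 10 members without a root read included ATCG00010, ATCG00610 and 4.5S rRNA, each with 22 shoot reads or fewer.

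Nuclear genes supply the other subunits of these complexes. Of 26 tested nuclear subunits of photosynthetic complexes 26 were called higher in mock Col shoots than roots (median log2 change 7.15), with RBCS2B at 10.3 ± 0.825 and RBCS1A at 9.20 ± 0.605 (SE). Of 20 genes of chloroplast transcription 19 were called higher (median 2.57), led by PTAC7 at 4.01 ± 0.11 and the sigma factor SIG4 at 3.84 ± 0.14. The exception was AT5G15700, listed here as the polymerase RPOTMP, at -0.24 ± 0.12. Of 13 genes of chloroplast RNA processing and stability 12 were called higher (median 2.90), among them CRB, also called CSP41B, at 7.30 ± 0.251 and CSP41A at 7.21 ± 0.414. The exception, CRR2, differed by -0.00 ± 0.10. In the same fit 32.9% of all genes were called higher. Genes entered it with at least 1 FPKM in 3 libraries, which shoots alone could supply. With that minimum in root libraries, 24 of the 27 listed subunits and 19 of the 20 transcription genes were tested. The counts are therefore no support for a difference between organs. These lists were chosen with results of these data known, and levels near 0 in roots set the size of the larger changes.

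Among shoot libraries the chloroplast genes varied by very different amounts. rbcL had 27.6, 17.6 and 21.2 FPKM in BA ahp4 shoots, 17.6, 18.7 and 57.6 in mock ahp4, 21.1, 53.6, 41.4 and 28.2 in BA Col, and 17.7, 26.5, 47.0 and 48.2 in mock Col. The high libraries were spread over 3 of the 4 groups, and every pair of groups overlapped. The pooled SD within groups on the log2 scale was 0.66, where counting reads alone would give 0.07. psbA followed the same libraries, with 43.8 FPKM in the mock ahp4 library where rbcL had 57.6, and had an SD of 0.57. rpoB had an SD of 0.14, atpB 0.19 and clpP 0.19, with 0.09, 0.09 and 0.19 from counting. Of the 20 members with at least 500 shoot reads and 5 FPKM, rbcL, psbA, atpF, atpH, psbD, psbC and psbB had the highest SDs, 0.66 to 0.42. Of the 20 members 13 encode photosynthesis proteins, and among these atpB at 0.19, atpA at 0.25, psbM at 0.27 and psaJ at 0.31 were low.

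**Figure D4:**
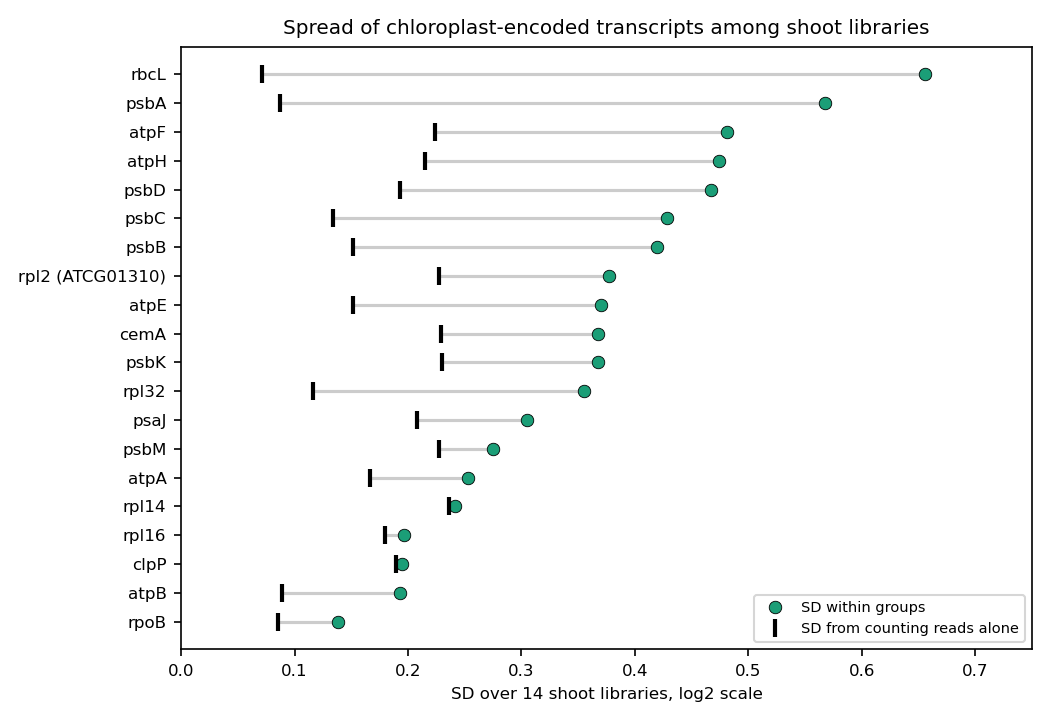
Pooled SD within groups of log2(FPKM + 1) over the 14 shoot libraries for 20 members with at least 500 shoot reads and a mean of at least 5 FPKM (circles), beside the SD that counting reads alone gives (bars). rbcL, at 0.66, and psbA, at 0.57, lie farthest from their counting error, whereas clpP lies on it.

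Over all 30 libraries, the nuclear genes whose deviations from group means were most like those of the summed chloroplast FPKM were AT2G45180 (Pearson's r = 0.78), AT1G10590 (0.76), PSAG (0.76), PIP2E (0.75) and PSAD-1 (0.73). They were the 5 highest of 13916 genes with at least 1 FPKM in every library, so they were chosen for high values. PSAG and PSAD-1 encode photosystem I subunits and PIP2E an aquaporin. The libraries share handling and scaling, and no p is attached.

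For the response to BA, 1 member was called in ahp4 shoots (93 of 106 tested, limma), and none in Col shoots (93 tested), ahp4 roots (16 tested) or Col roots (16 tested). The same fits called 3.92%, 8.15%, 20.7% and 20.5% of all genes in these comparisons. At an unadjusted p under 0.05 there were 6, 3, 0 and 2 members, where 17.7%, 23.3%, 33.2% and 33.4% of all genes were that low. With BA, ATCG00410 (73 bases, unnamed) had 0, 0 and 0 reads in ahp4 shoots, against 3, 1 and 2 in mock ahp4 shoots, a log2 change of -1.82 ± 0.38 (SE, limma, adjusted p = 0.0144), in a fit that called 0.997% of all genes lower. It has 11 reads in the whole series, so the call turns on 6 reads. It was lost without mock replicate 1 (adjusted p = 0.054), mock replicate 3 (0.0728) or BA replicate 2 (0.0545), where 0 members were called. Without BA replicate 1 of ahp4 shoots 3 members were called lower, ATCG00410, rpoB and ATCG00450.

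rpoB had the second smallest p in ahp4 shoots, with 9.95, 7.23 and 7.11 FPKM with BA and 11.03, 11.2 and 9.18 FPKM in mock, which overlapped. Its log2 change there was -0.34 ± 0.12 (SE, limma, adjusted p = 0.155), which is not called. In Col shoots it had the smallest p, with 8.55, 9.08, 8.73 and 8.48 FPKM with BA and 12.01, 10.95, 10.2 and 10.9 FPKM in mock. These groups did not overlap, and the log2 change of -0.30 ± 0.11 (adjusted p = 0.102) is not called either. rpoC1 beside it had -0.41 ± 0.19 in Col shoots (adjusted p = 0.225). rbcL had -0.29 ± 0.45 in ahp4 shoots and 0.08 ± 0.39 in Col shoots, and psbA -0.34 ± 0.39 in ahp4 and -0.00 ± 0.34 in Col, so the spread of these genes between libraries leaves wide errors. In roots the smallest p belonged to ATCG00400 in ahp4, at -0.87 ± 0.42 (adjusted p = 0.165), and to atpH in Col, at 0.72 ± 0.31 (adjusted p = 0.117).

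The members' median log2 change with BA was -0.25 in ahp4 shoots, where all genes tested had -0.05, and -0.09 in Col shoots, where they had -0.04. Of 93 members, 72 were negative in ahp4 shoots and 56 in Col shoots, counts that share the scaling of the same few libraries. The share of all genes that were negative is not given here. In ahp4 shoots, mock replicate 3 had 435.8 RPM of chloroplast reads. The other mock libraries, at 296.3 and 272.0 RPM, lay within the BA range of 251.9 to 311.4. Nuclear subunits of photosynthetic complexes gave 0 calls of 26 tested in BA shoots of either genotype. Of all genes, 3.92% were called there in ahp4 and 8.15% in Col. In BA roots, where 20.7% of all genes were called in ahp4 and 20.5% in Col, 2 of 24 rose in each, NdhO by 1.33 ± 0.24 and PSBO2 by 0.85 ± 0.27 in ahp4 (adjusted p = 0.000719 and 0.0328), and NdhO by 1.47 ± 0.24 and PSBO2 by 1.25 ± 0.27 in Col (adjusted p = 0.000297 and 0.00335). Of 19 tested genes of chloroplast transcription, 2 rose in ahp4 roots, SIGE and PTAC7, and 1 in Col roots, SIGE. The sigma factor gene SIGE rose by 1.12 ± 0.22 in ahp4 roots and 0.88 ± 0.22 in Col roots (adjusted p = 0.00143 and 0.00828). PTAC7 rose by 0.37 ± 0.10 in ahp4 roots (adjusted p = 0.0131), and CRR2 by 0.26 ± 0.09 in Col roots (adjusted p = 0.0388), 1 of 13 RNA processing genes there, with 0 of 13 in ahp4 roots. Of the shoot markers 1 of 5 tested was called higher in BA roots of each genotype, LHCB2.1, with a median change of 0.60 in ahp4 and 0.60 in Col, and summed FPKM of 127.4 to 249.5 in BA ahp4 and 82.3 to 304.2 in mock ahp4, and of 94.0 to 344.3 in BA Col and 64.2 to 360.6 in mock Col. Their part in these changes was not tested. No gene of the 2 chloroplast expression lists was called in BA shoots of either genotype, by limma.

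The count of 0 in Col roots was 1 without mock replicate 3 and without BA replicate 1, rpl36 being higher in both. The count of 0 in Col shoots was 1 without BA replicate 2, psbF being lower. For the difference between organs in the BA response (shoot minus root), 1 of 94 members was called in ahp4, ATCG00410 at -1.82 ± 0.48 (limma, adjusted p = 0.0168), and 0 in Col, where 8.76% and 11.6% of all genes were called. In ahp4, 4.37% of all genes were called in the negative direction. At an unadjusted p under 0.05 there were 5 members in each, where 23% of all genes in ahp4 and 24.8% in Col were that low. The count in Col was 1 without BA shoot replicate 2 (psbF), 3 (rpl36) or 4 (ATCG00110). That in ahp4 was 0 without mock shoot replicate 3, and 2 without mock shoot replicate 2 (ATCG01190 also) or BA shoot replicate 3 (psaI also).

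**Figure D5:**
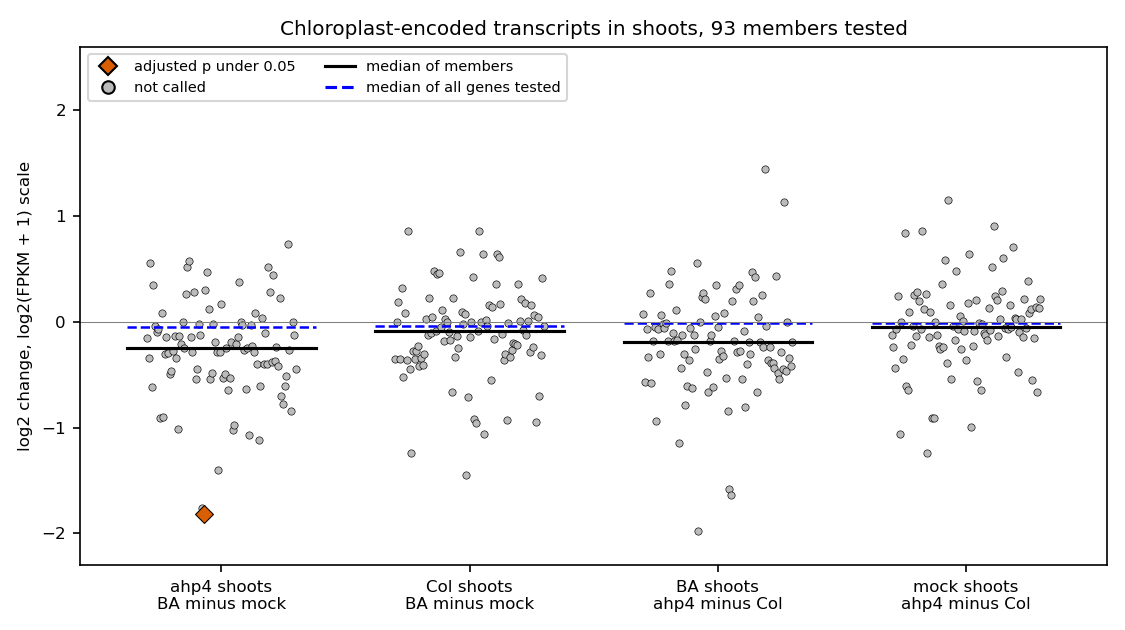
log2 change of the 93 tested members in shoots for BA minus mock in ahp4 and in Col, and for ahp4 minus Col with BA and in mock. Circles are members not called, the diamond is the member called (ATCG00410), and solid and dashed lines are the medians of members and of all genes tested. The members' medians are -0.25, -0.09, -0.19 and -0.05.

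Between genotypes no member was called in BA roots (16 tested), mock roots (16), BA shoots (93) or mock shoots (93) by limma, in fits that called 0.0257%, 0.0875%, 0.00548% and 0.00548% of all genes. With so few calls over all genes after adjustment, a count of 0 called members is what the background gives. At an unadjusted p under 0.05 there were 2 of 16, 1 of 16, 9 of 93 and 5 of 93 members. Of all genes 3.94%, 9.03%, 4.48% and 2.06% were that low. The members' share was thus above that of all genes except in mock roots, a difference that was not tested. clpP had the smallest p in mock roots, with 2, 4, 2 and 1 reads in ahp4 and 10, 3, 10 and 9 in Col, which overlap, and a log2 change of -0.58 ± 0.22 (SE, adjusted p = 0.481). psbA had 0.386, 1.54, 0.613 and 0.505 FPKM in mock ahp4 roots and 1.75, 1.82, 1.06 and 1.79 in mock Col roots, also overlapping, with -0.60 ± 0.29 (adjusted p = 0.571). In BA roots rpl36 had -0.95 ± 0.42 (adjusted p = 1).

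The members' median log2 change between ahp4 and Col was -0.28 in BA roots and -0.20 in mock roots, beside 0.01 and 0.02 over all genes tested, with 13 and 11 of 16 members negative. These medians rest on the 16 members of 106 that passed the minimum in roots. In mock shoots the smallest p was that of ATCG00410, at 1.16 ± 0.35, and in BA shoots that of rps19, a small-subunit protein, at 1.45 ± 0.31 (adjusted p = 1 and 0.944). rps19 had 11, 10 and 4 reads in BA ahp4 shoots and 1, 0, 3 and 2 in BA Col shoots, groups that did not overlap. The lists of nuclear subunits, chloroplast transcription and RNA processing had 0 calls in all 4 comparisons of genotypes.

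The difference between genotypes in the BA response was called for 0 of 16 members in roots and 0 of 93 in shoots, where limma called 0% of all genes in both. At an unadjusted p under 0.05 there were 1 and 3 members, where 2.71% and 1.84% of all genes were that low. atpH had the smallest p in roots, at -0.96 ± 0.44, and the unnamed ATCG00090 (88 bases) in shoots, at -1.77 ± 0.47 (adjusted p = 1 for both). rbcL had -0.36 ± 0.60 and rpoB -0.04 ± 0.16 in shoots, so for rpoB the responses in ahp4 and Col lay within 1 SE of each other.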

How the data were processed

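Poly-T-selected RNA was sequenced as 150-base paired reads, per the labels' protocols, and the authors deposited 1 table of FPKM values per gene and library. Per the submitters' processing notes, TAIR10 was used. The aligner, counter and strand setting were not given in the sources used here. Whole reads were rebuilt from the steps of the FPKM values for all 26893 features above 0 (tolerance 0.001 reads). The deposited scale equals a median-of-ratios scale over 17484 features.

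The members and gene lists were chosen with earlier results of these data known. Chloroplast names rest on recovered length, with 55 of 55 neighbouring pairs in map order on the RefSeq chloroplast genome of TAIR10.1. Named genes are the 10 highest members in shoots and in roots, up to 10 called members with the highest and up to 10 with the lowest change in a comparison, up to 4 of the highest of each role, up to 4 called genes by size of change from each nuclear list, the smallest p where none was called, and the 5 nuclear genes of highest likeness. Others were chosen after their values were seen.

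Log2(FPKM + 1) was tested with limma 3.58.1 in R 4.3.3 with a trended prior, keeping features of at least 1 FPKM in 3 libraries of a fit, with Benjamini-Hochberg adjustment over all of them and calls at an adjusted p under 0.05. BA and genotype contrasts came from a fit of 4 groups within each organ, and contrasts involving both organs from 1 fit of 8 groups. The fit was tested on simulated data. Alternatives were another pseudocount, no filter, total-read scaling, other sets of samples, a replicate block and leaving out each library.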

Additional observations from a re-analysis of the deposited data

Results flagged for a closer look

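In 15 of 88 tested groups of 4 libraries, 1 library lay far from the other libraries of its group by Dixon's test at the 95% level. For normally spread values chance gives about 1 in 20, a rate that does not hold for genes with 0 reads in most libraries, and 8 of the 15 rest on 3 reads or fewer. In 3 of these the gene had more than 11 reads in that library: psaJ in mock Col shoots, lowest in replicate 3 at 26.6 FPKM (36 reads), atpE in mock Col shoots, highest in replicate 4 at 36.0 FPKM (119 reads), and psbA in mock Col roots, lowest in replicate 3 at 1.06 FPKM (16 reads).

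The others were the highest of root groups and rest on few reads. In BA ahp4 roots they were rpl32 in replicate 2 at 5.95 FPKM (11 reads), psbI in replicate 1 at 0.724 FPKM (1 read) and ATCG00100 in replicate 4 at 1.78 FPKM (2 reads). In mock ahp4 roots they were psbM, atpE and psbK in replicate 3, at 1.55, 0.612 and 0.876 FPKM (2, 3 and 2 reads). In BA Col roots they were ATCG00390 in replicate 2 at 6.20 FPKM (6 reads) and ATCG00100 in replicate 4 at 6.98 FPKM (6 reads). In mock Col roots they were psbK in replicate 2 at 2.26 FPKM (5 reads), ATCG00450 in replicate 1 at 1.71 FPKM (2 reads), ATCG00390 in replicate 4 at 1.13 FPKM (1 read) and rpl36 in replicate 3 at 1.85 FPKM (3 reads).

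The BA response of ATCG00410 in ahp4 differed between shoots and roots by -1.82 on the log2 scale in limma's test of the difference, from 6 reads in mock ahp4 shoots, 0 in BA ahp4 shoots and 0 in either group of ahp4 roots.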

How the results depend on the processing

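Of the counts of called members under other settings, 256 stayed within 1.5 times the reported count and 16 did not. Of the values of single members 785 kept their side of the threshold, 4 were no longer called, 1 became called and 0 reversed. A change of direction counted as reversed only where the value was called under either setting. Values not called may therefore have changed direction within the 785. Without the filter 1 member, ATCG00290, was called lower with BA in Col roots. In 1 fit of all 8 groups 1 member, ATCG00090, was called higher with BA in Col shoots. With the compared groups alone 2 members, rpl36 and ATCG00410, were called for the difference between organs in the BA response of ahp4. Leaving out each library in turn gave 0 to 3 calls for BA in ahp4 shoots, 0 to 1 in Col shoots and 0 to 1 in Col roots, and 0 to 2 and 0 to 1 for the difference between organs in ahp4 and Col. The cause was not tested. Organ counts here are those with the minimum of 1 FPKM in 3 libraries, where 94 members were tested. They were 73, 84, 75 and 85 in BA ahp4, mock ahp4, BA Col and mock Col. Without each library in turn they ran over 66 to 78, 79 to 86, 74 to 77 and 77 to 84, in that order. The counts over all 106 members were not repeated in this way. With the replicate number as a block the organ counts were 74, 84, 75 and 84 in BA ahp4, mock ahp4, BA Col and mock Col, and the counts for BA and genotype were as reported. Within an organ, deviations of libraries with the same number correlated by -0.129 to 0.359. Libraries with different numbers, and roots against shoots, were not compared, so these values cannot show whether the numbers pair the samples. Depth limits roots most, where the median member had 0 reads per library.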
